A study of Mus musculus with 9 samples.

Results

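The 10 genes described here encode LIM-domain proteins of the muscle Z-disc and actin cytoskeleton, together with the muscle ankyrin repeat gene Ankrd1. They fall into 4 families: the FHL genes Fhl1, Fhl2 and Fhl3, the CRP genes Csrp1, Csrp2 and Csrp3, the PDZ-LIM genes Pdlim3, Pdlim5 and Ldb3, and Ankrd1. Their members were all probe sets that the platform annotation pairs with exactly 1 of these symbols, which gave 21 of the 45101 probe sets on the array, and 10 of 18193 genes. Expression was measured on Affymetrix mouse arrays in left ventricles 6 weeks after transaortic constriction (TAC, n = 4) or sham surgery (n = 5). All mice were male C57BL/6, and no transgene or drug is named in the labels. TAC narrows the aorta, so that the ventricle ejects against a raised pressure, and the labels describe it as a model of heart failure.

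A LIM domain is a zinc-binding fold that holds proteins together. FHL proteins consist almost wholly of LIM domains and bind titin, signalling kinases and transcription factors. CRP proteins link alpha-actinin, zyxin and actin, and Csrp3 (muscle LIM protein) is a Z-disc protein whose loss in mice causes dilated cardiomyopathy. PDZ-LIM proteins bind alpha-actinin through a PDZ domain. Ankrd1 (cardiac ankyrin repeat protein) has no LIM domain. It is held by titin and myopalladin in the sarcomere, is also found in the nucleus, and is a known target of YAP with TEAD factors. Several of these proteins have been proposed as sensors of stretch in cardiac muscle.

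The letters around the start sites are shown first, for the members whose RefSeq window holds a motif that was searched for here. Of the 10 genes, 9 had at least 1 window of 250 bases before to 50 bases after a start site (RefSeq, build GRCm38.p6), 15 windows in all, and Csrp2 had none. Each window was searched on both strands for the core of the M-CAT element, which TEAD factors bind (CATTCC or its reverse complement GGAATG), and for the CArG box, the element bound by serum response factor (SRF). Capitals mark the motif letters in the sequences below, each written 5′ to 3′ on the strand of the gene. Ankrd1 and Pdlim3 are shown because theirs were the windows with an M-CAT core. Fhl1, Fhl2 and Ldb3 are shown because they held a CArG box.
Ankrd1, chr19:36119795-36120094, minus strand: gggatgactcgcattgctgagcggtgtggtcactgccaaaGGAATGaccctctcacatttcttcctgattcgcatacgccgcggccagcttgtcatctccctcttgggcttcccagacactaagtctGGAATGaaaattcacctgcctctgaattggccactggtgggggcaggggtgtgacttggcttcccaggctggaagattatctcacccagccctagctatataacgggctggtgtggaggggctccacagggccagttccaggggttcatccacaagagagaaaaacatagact
Pdlim3, chr8:45885237-45885536, plus strand: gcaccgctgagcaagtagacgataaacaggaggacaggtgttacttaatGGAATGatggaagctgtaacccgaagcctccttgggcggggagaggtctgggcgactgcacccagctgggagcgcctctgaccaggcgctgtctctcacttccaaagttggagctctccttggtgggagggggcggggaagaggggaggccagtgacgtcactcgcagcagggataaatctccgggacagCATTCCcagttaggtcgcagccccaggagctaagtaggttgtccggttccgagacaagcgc
Fhl1, chrX:56779433-56779732, plus strand: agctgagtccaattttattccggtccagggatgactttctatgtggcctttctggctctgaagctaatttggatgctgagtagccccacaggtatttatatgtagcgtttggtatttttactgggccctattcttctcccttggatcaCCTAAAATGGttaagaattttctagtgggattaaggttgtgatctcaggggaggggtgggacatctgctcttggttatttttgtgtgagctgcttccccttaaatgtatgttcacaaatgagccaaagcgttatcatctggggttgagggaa
Fhl2, chr1:43163912-43164211, minus strand: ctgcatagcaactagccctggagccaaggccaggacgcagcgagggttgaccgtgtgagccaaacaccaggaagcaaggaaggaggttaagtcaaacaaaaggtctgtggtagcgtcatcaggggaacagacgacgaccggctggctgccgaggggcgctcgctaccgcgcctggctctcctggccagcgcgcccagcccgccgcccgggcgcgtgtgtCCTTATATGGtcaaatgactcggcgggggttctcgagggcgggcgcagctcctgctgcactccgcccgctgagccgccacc
Ldb3, chr14:34588632-34588931, minus strand: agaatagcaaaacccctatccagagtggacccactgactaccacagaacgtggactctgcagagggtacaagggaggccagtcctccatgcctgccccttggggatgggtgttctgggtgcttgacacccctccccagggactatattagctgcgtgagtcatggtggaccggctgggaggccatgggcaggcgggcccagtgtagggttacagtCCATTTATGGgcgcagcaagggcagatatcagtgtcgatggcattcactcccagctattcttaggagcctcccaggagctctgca
The Ankrd1 window held 2 M-CAT cores, which began 210 and 123 bases before the start site. The Pdlim3 window held 2 as well, which began 201 and 11 bases before it. M-CAT cores thus lay in 2 of the 15 member windows, and over all 32851 windows 14.7% held one. A CArG box lay in 1 Fhl1 window, in both Fhl2 windows and in both overlapping Ldb3 windows, against 1.63% of all windows. The box in the Ldb3 windows is the same one, seen in each. By gene, 3 of the 9 held a CArG box, against 1.81% of all genes with a window. No motif overlapped another. A match of letters is a description of the window and not evidence of binding.

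Most of these genes were higher in the pressure-loaded ventricles. Csrp2 was 2.18-fold, Fhl1 1.90-fold and Ankrd1 1.72-fold higher at the brightest probe set of each gene, and a second Ankrd1 probe set was 3.85-fold higher. Csrp1, Pdlim3 and Pdlim5 also rose, by 1.33, 1.30 and 1.22 times. Fhl2, Fhl3, Csrp3 and Ldb3 did not pass the test. The values are RMA values on a log2 scale, and differences are TAC minus sham with the standard error (SE) of a limma fit over all 18193 genes, each at its brightest probe set. A gene was called where its limma p, adjusted by the Benjamini-Hochberg method, was below 0.05. By that rule 6 of the 10 genes were called, beside 25.1% of all genes, and all 6 rose, beside 12.8% of all genes that rose. In limma 0 of the 10 genes were called lower, beside 12.3% of all genes that fell. At an unadjusted p below 0.05, 0 were lower, where 6519 of the 18193 genes passed in either direction. With robust fitting on a mean-variance trend 0 fell, where 5006 of all genes were called in either direction. The median difference over the 10 genes was 0.34 and over all genes -0.0038. In 7 of the 10 genes the groups did not overlap, beside 25.2% of all genes, and TAC arrays were the higher ones in each of the 7. Among single probe sets, adjusted over all 45037 that are not controls, 13 of 21 rose and 8 did not pass, beside 17.7% of all probe sets called, 8.87% that rose and 8.86% that fell. In 14 of the 21 every TAC array lay above every sham array, beside 10.2% of all. Pdlim5 alone supplied 7 of the 13 and 7 of the 14. Probe sets of 1 gene are not separate members, so these counts lean on that gene. The 10 genes were chosen with results of these arrays known, so these counts describe them and do not test them as a group.

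**Figure D1:**
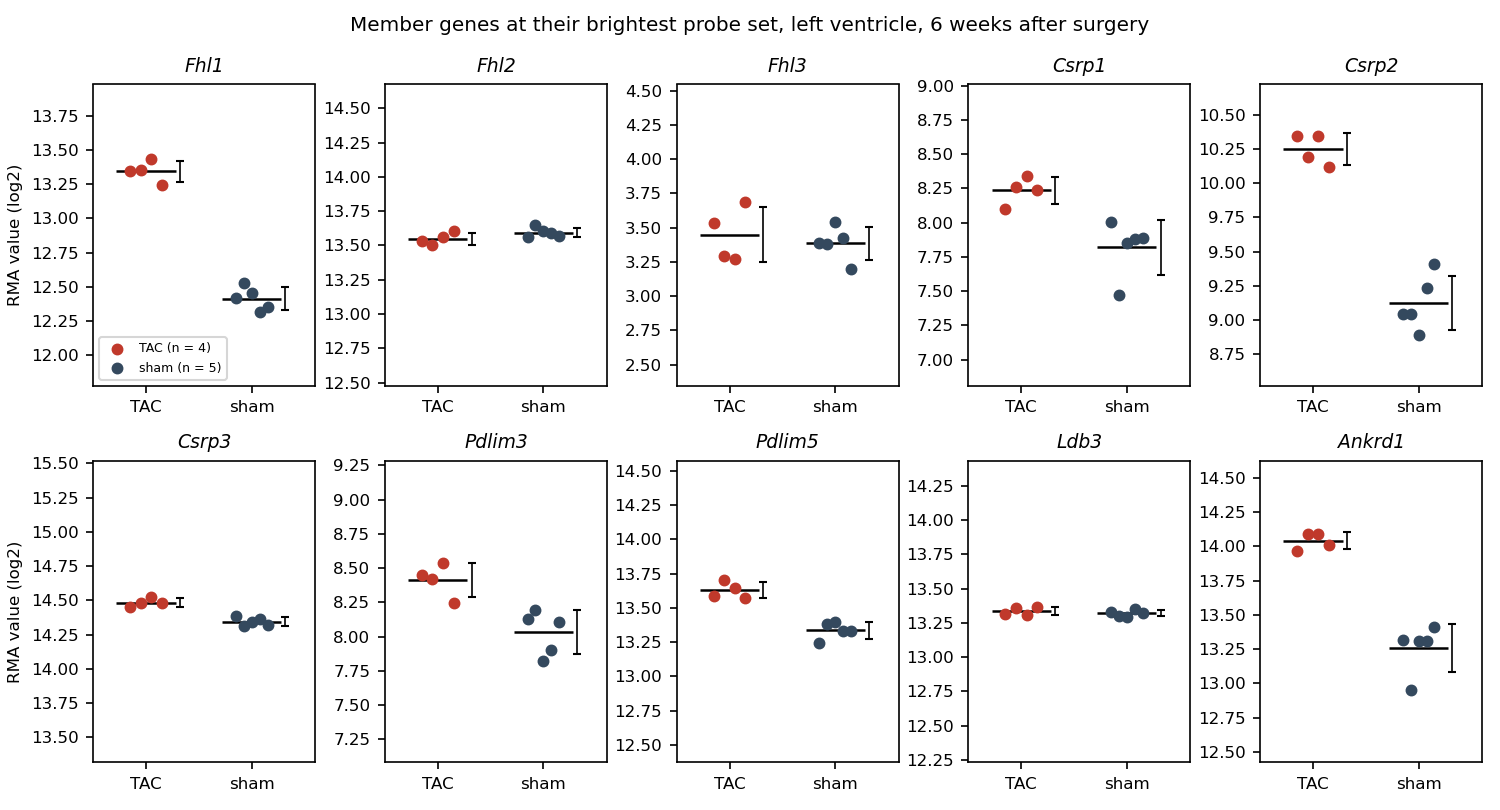
RMA values (log2) of the 10 genes at their brightest probe set in each TAC array (red, left, n = 4) and sham array (dark blue, right, n = 5). Bars are group means, whiskers 1 SD, and every panel spans the same number of log2 units. The groups are apart in 7 genes and overlap in Fhl2, Fhl3 and Ldb3.

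Every array held the same sorted values, with a median of 6.5661, so a general rise or fall of RNA cannot be seen. The pressure overload markers Nppa, Nppb, Myh7 and Acta1 were higher in all TAC than in all sham arrays, by 1.30 to 3.03 (1.03 to 2.82 without sham replicate 2). Sham replicate 2 was the lowest sham array in 7 of the 21 probe sets described here. The cardiomyocyte markers were bright, with a mean over the 8 genes of 14.04 to 14.06 in TAC arrays and 14.09 to 14.12 in sham arrays. Of these, 7 did not pass and Tnni3 fell by 0.16, and for 8 of the 9 arrays that call was gone once the array was removed (adjusted p up to 0.112 in limma). Among all 46 genes that averaged above 14, only 3 were called, so not passing says little for markers in that band. Of 8 fibroblast markers 6 rose, with a mean of 11.57 to 11.91 in TAC arrays and 10.61 to 11.01 in sham arrays. Tcf21 (0.13) and Pdgfra (0.04), named to complete that list, did not pass. Of 6 macrophage markers 4 rose (10.03 to 10.18 against 9.37 to 9.75). Cd68 (0.47) and Cd163, named to complete that list, did not pass. Cd163 went the other way (-0.40, adjusted p = 0.0564 in limma). On leaving out 1 array 3 to 5 macrophage markers rose and 0 to 1 fell. Of 6 atrial markers 3 rose (Dkk3, Nppa and Myl4), with a mean of 7.49 to 7.84 in TAC arrays and 6.40 to 6.92 in sham arrays. The largest differences in that mean were those of Dkk3 (3.07) and of Nppa (2.14), which is also a pressure overload marker. The other 3, named to complete the list, did not pass: Myl7 (0.42), Sln (-0.18) and Bmp10 (0.002). The Myl4 groups overlapped, and its call was lost without TAC replicate 1 or 3 (adjusted p up to 0.0561 in limma) and with the mean of its probe sets, where the difference was 0.157 in place of 0.447. Of 7 endothelial markers Vwf rose and Kdr fell. The number that fell was 2 without sham replicate 2 and 0 without TAC replicate 1, 2 or 3 or sham replicate 1, 4 or 5. Of 8 skeletal muscle markers 2 rose and 1 fell. In bulk tissue, fewer cells of a type and less RNA per cell cannot be told apart. RMA values have no zero, so no marker can be called absent.

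Ankrd1 was measured by 2 probe sets made from the same sequence record. At 1420991_at the TAC arrays read 13.94, 13.91, 13.98 and 13.94, and the sham arrays 12.30, 11.40, 12.14, 12.05 and 12.09. All 4 TAC arrays lay well above all 5 sham arrays, and sham replicate 2 was the lowest. The difference was 1.95 (SE 0.15, adjusted p over all probe sets = 2.07e-05 in limma), and 1.80 without sham replicate 2. At the brighter 1420992_at the TAC arrays read 13.97, 14.09, 14.09 and 14.01, and the sham arrays 13.32, 12.95, 13.31, 13.31 and 13.41. The groups were again apart, with sham replicate 2 the lowest, and the difference was 0.78 (SE 0.09, adjusted p = 0.000198 over all genes). Without sham replicate 2 it was 0.70. The 2 probe sets thus changed unequally. The value of 1420991_at minus that of 1420992_at was -0.18 to -0.02 in TAC arrays and -1.55 to -1.01 in sham arrays, an unequal change of 1.17 (two-sided exact permutation p = 0.00794, the smallest that 126 splits allow, and 0.0139 after Benjamini-Hochberg adjustment over 7 such comparisons). Without sham replicate 2 the unequal change was 1.09. Without sham replicate 3, 4 or 5 its adjusted p was 0.05 and no longer below the threshold. Without sham replicate 1 or 2 it was 0.04. In each of these cases 4 arrays against 4 cannot give an unadjusted p under 0.0286. The adjusted p then depends on how many of the 7 comparisons reach that limit. In TAC arrays both probe sets read close to 14. The window of this gene is 1 of the 2 above that hold M-CAT cores.

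Several of the genes lie near the top of the scale. Of the 10 genes, 5 averaged above 13 at their brightest probe set (Fhl2, Csrp3, Pdlim5, Ldb3 and Ankrd1), beside 1.71% of all genes. Differences over all genes were smaller in the brightest bands. Of 46 genes that averaged above 14, 3 were called (6.52%), and 95% of them differed by at most 0.177 in size. Of 265 genes between 13 and 14, 32.1% were called, and the same limit was 0.469. Of 3153 genes between 10 and 12 it was 38.5% and 0.771. The differences of the 5 bright genes are given beside those bands, and the part that brightness played in them was not tested.

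**Figure D2:**
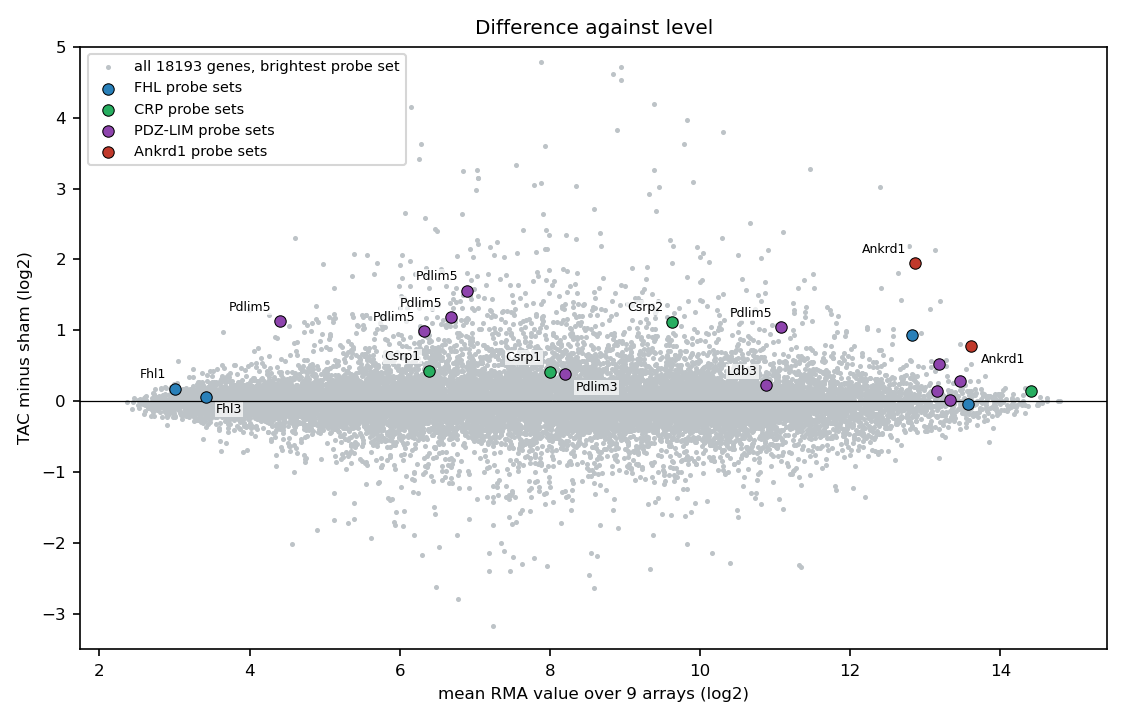
Difference between TAC and sham (log2) against the mean RMA value over 9 arrays for all 18193 genes at their brightest probe set (grey) and for the 21 probe sets of the FHL (blue), CRP (green) and PDZ-LIM (purple) genes and Ankrd1 (red). The cloud of all genes narrows above 13, where 7 of the 21 probe sets lie.

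Among the FHL genes, Fhl1 rose and the others did not pass. Fhl1, mutated in human reducing body myopathy and needed for the hypertrophic response to pressure load in mice, read 13.34, 13.35, 13.44 and 13.24 in TAC arrays and 12.42, 12.53, 12.45, 12.32 and 12.35 in sham arrays. The groups lay apart by more than the whole range within either of them. The difference was 0.93 (SE 0.07, adjusted p = 1.14e-05 in limma). A second Fhl1 probe set, 1459003_at, read 2.86 to 3.34 in TAC arrays and 2.80 to 3.27 in sham arrays, near the bottom of the scale, where only 2.09% of probe sets were dimmer. Its difference of 0.18 did not pass (adjusted p = 0.376 in limma over all probe sets).

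Fhl2, which binds titin and represses calcineurin signalling in cardiac cells, read 13.53, 13.50, 13.56 and 13.61 in TAC arrays and 13.56, 13.65, 13.60, 13.59 and 13.57 in sham arrays. The groups overlapped. The difference was -0.04 with a 95% confidence interval of -0.17 to 0.08 (adjusted p = 0.617 in limma). Both Fhl2 windows hold a CArG box, as do the overlapping Ldb3 windows, which share the same box, and neither gene was called. Fhl1, which also has a window with a CArG box, was called. The part of the box in these results was not tested. Fhl3, better known from skeletal muscle, read 3.27 to 3.69 in TAC arrays and 3.20 to 3.54 in sham arrays, dimmer than all but 5.43% of probe sets. Its difference of 0.06 (interval -0.17 to 0.29) did not pass (adjusted p = 0.723 in limma). Its sign turned with array weights (-0.02) and without TAC replicate 4 (-0.02), so no direction can be given for it.

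Of the CRP genes, Csrp2 changed most. Csrp2, a gene of smooth muscle and of activated mesenchymal cells, read 10.34, 10.19, 10.35 and 10.12 in TAC arrays and 9.04, 9.04, 8.89, 9.24 and 9.41 in sham arrays. All TAC arrays lay above all sham arrays. The difference was 1.12 (SE 0.11, adjusted p = 4.7e-05 in limma), the largest among the 10 genes at their brightest probe sets. Csrp1, which is widely expressed and abundant in smooth muscle, read 8.10, 8.26, 8.34 and 8.24 in TAC arrays and 8.01, 7.47, 7.85, 7.88 and 7.89 in sham arrays. The groups did not overlap, but TAC replicate 1 and sham replicate 1 lay close together. The difference was 0.42 (SE 0.11, adjusted p = 0.0154 in limma). Its call was lost without TAC replicate 3 (adjusted p = 0.0526), and without sham replicate 2 the difference was 0.33 and still called (0.0076). The dimmer Csrp1 probe set 1425810_a_at differed by 0.43, overlapped between the groups and did not pass (adjusted p = 0.132 over all probe sets).

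Smooth muscle markers, given here because Csrp1 and Csrp2 are expressed in that cell type, went both ways. Of 7 markers, Des and Tagln rose by 0.52 and 0.53 and Acta2, Smtn and Myh11 fell by 0.53, 0.45 and 0.59. Des is also a cardiomyocyte gene, and Myh11 was named to complete the count after its value was seen. The mean over the 7 genes was 9.49 to 9.68 in TAC arrays and 9.47 to 9.80 in sham arrays. The part of these cells, or of fibroblasts (6 of 8 markers rose), in the Csrp1 and Csrp2 results was not tested.

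Csrp3 was among the brightest probe sets on the arrays. It read 14.45, 14.48, 14.52 and 14.48 in TAC arrays and 14.38, 14.31, 14.34, 14.37 and 14.32 in sham arrays. All TAC arrays lay above all sham arrays, by a small margin. The difference of 0.14 (SE 0.05, 95% confidence interval 0.02 to 0.26) was not past the threshold (adjusted p = 0.0856 in limma). It passed with robust fitting on a mean-variance trend (adjusted p = 0.00149), with cyclic loess scaling (0.0466) and when genes below the median level were left out (0.0264). Whether Csrp3 is counted as higher therefore depends on the setting.

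The PDZ-LIM genes went from no detectable difference in Ldb3 to a rise in every probe set of Pdlim5. Pdlim5 (Enigma homolog), which tethers protein kinases to the Z-disc and is made in long forms with LIM domains and short forms without them, had 7 probe sets. At the brightest, 1429783_at, it read 13.59, 13.70, 13.64 and 13.57 in TAC arrays and 13.24, 13.38, 13.39, 13.33 and 13.33 in sham arrays. The difference was 0.29 (SE 0.06, adjusted p = 0.00576 in limma). All 7 probe sets were called, with every TAC array above every sham array, and their differences ran from 0.29 to 1.56.

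The 7 Pdlim5 probe sets did not rise by the same amount. At 1422861_s_at the TAC arrays read 7.94, 7.72, 7.79 and 7.60 and the sham arrays 6.35, 5.85, 6.22, 6.11 and 6.51, a difference of 1.56 (SE 0.13). At 1427475_a_at the TAC arrays read 11.68, 11.67, 11.63 and 11.65 and the sham arrays 10.66, 10.71, 10.63, 10.44 and 10.63, a difference of 1.05 (SE 0.07). Both pairs of groups lay far apart. The other differences were 0.52 at 1421413_a_at, 0.99 at 1422863_s_at, 1.13 at 1422862_at and 1.18 at 1450786_x_at. Against the brightest probe set within each array, 1422861_s_at rose by 1.27 more, 1450786_x_at by 0.89 more and 1427475_a_at by 0.76 more, each with a two-sided exact permutation p of 0.00794 (0.0139 after adjustment over 7 comparisons). The limit of 4 arrays against 4 held for these 3 as for Ankrd1. Their adjusted p was 0.05 without sham replicate 3, 4 or 5 and 0.04 without sham replicate 1 or 2. Against the mean of the other Pdlim5 probe sets the unequal rise was smaller, 0.696 for 1422861_s_at and 0.259 for 1450786_x_at (adjusted exact permutation p = 0.0278 for both).

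The probe set 1421413_a_at rose by 0.23 more than the brightest (exact permutation p = 0.0317, adjusted 0.0444), which did not pass once any array but sham replicate 1 was removed (adjusted p up to 0.146). Against the mean of the other Pdlim5 probe sets it rose by less (-0.51, adjusted exact permutation p = 0.0278), and 1427475_a_at did not differ detectably from that mean (0.10, adjusted p = 0.250). The 2 probe sets with the smallest rise were the 2 that averaged above 13. The annotation gives the same sequence record for 1422861_s_at, 1450786_x_at, 1422863_s_at and 1422862_at. It gives another record for 1421413_a_at, another for 1427475_a_at and none for 1429783_at. It does not say which long or short form each probe set reads. In Affymetrix naming the endings _s_at and _x_at mark probes that may also bind transcripts of other genes. The parts of transcript forms, brightness and other transcripts in the unequal rise were not tested.

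Pdlim3 (actinin-associated LIM protein), which strengthens the binding of alpha-actinin to actin, read 8.45, 8.42, 8.54 and 8.25 in TAC arrays and 8.13, 8.20, 7.83, 7.90 and 8.11 in sham arrays. The groups did not overlap, and TAC replicate 4 was the nearest to the sham arrays. The difference was 0.38 (SE 0.09, adjusted p = 0.0141 in limma), and on leaving out 1 array it stayed called, with adjusted p up to 0.0498. Its window is the other one with 2 M-CAT cores, at a smaller difference than that of Ankrd1.

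Ldb3 (ZASP or Cypher), a Z-disc scaffold mutated in human myofibrillar myopathy and cardiomyopathy, had 3 probe sets and none was called. At the brightest, 1416752_at, it read 13.31, 13.36, 13.31 and 13.37 in TAC arrays and 13.33, 13.30, 13.30, 13.35 and 13.32 in sham arrays. The difference was 0.02, with an interval of -0.10 to 0.13 (adjusted p = 0.862 in limma), and median centring of the arrays turned it to -0.03. The other probe sets differed by 0.14 at 1433783_at and 0.22 at 1451999_at (adjusted p = 0.204 and 0.219 over all probe sets). Neither rose detectably more than the brightest within the arrays, by 0.12 and 0.21 (adjusted exact permutation p = 0.0741 and 0.135), although without sham replicate 2 the first of these passed (0.0400).

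**Figure D3:**
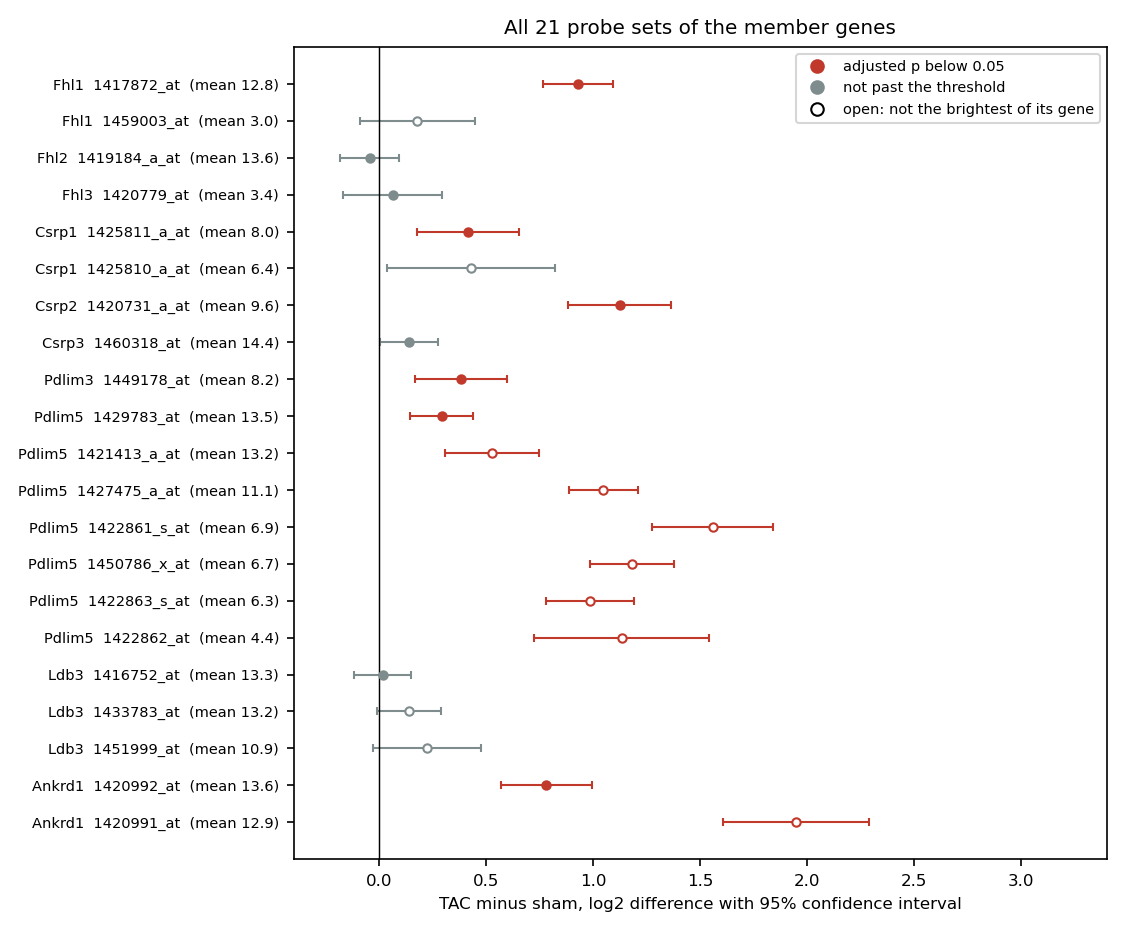
Difference between TAC and sham (log2) with its 95% confidence interval in limma for all 21 probe sets, with the mean RMA value over 9 arrays after each name. Red marks the 13 probe sets past an adjusted p of 0.05, grey the others, and open circles the probe sets that are not the brightest of their gene. The 7 Pdlim5 probe sets span 0.29 to 1.56 and the 2 Ankrd1 probe sets stand at 0.78 and 1.95.

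Related genes were set beside all genes, of which 12.8% rose and 12.3% fell, with a median difference of -0.0038. The closest relatives of Ankrd1 rose with it. Ankrd2, a muscle ankyrin repeat gene of slow skeletal muscle, rose by 1.14 (SE 0.20), with 6.70 to 7.79 in TAC arrays and 5.78 to 6.37 in sham arrays. Ankrd23 (diabetes-related ankyrin repeat protein) rose by 1.03 (SE 0.18), with 13.02 to 13.23 in TAC arrays and 11.42 to 12.49 in sham arrays, and by 0.851 without sham replicate 2. The adjusted p was 0.00216 for Ankrd2 and 0.00229 for Ankrd23 in limma. The whole list of these genes and titin N2A partners also held genes that are not N2A partners, among them titin itself (Ttn). Of its 9 genes 3 rose and 6 did not pass, with a median of 0.06. The third was the M-band gene Myom1 (0.23), a call lost without TAC replicate 3 (adjusted p = 0.0540) or 4 (0.0545).

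Other PDZ-LIM and LIM genes went both ways. Of 6 PDZ-LIM and related genes 3 rose and 1 fell, with a median of 0.07. Pdlim2, whose product directs the breakdown of NF-kappaB p65, rose by 1.15 (SE 0.14, and 1.02 without sham replicate 2) and Pdlim1 by 0.58 (SE 0.10), whereas Pdlim4 fell by 0.88 (SE 0.10). Limch1 rose by 0.19 with groups that overlapped, and it did not pass once sham replicate 2 was kept and any other array removed (adjusted p up to 0.115 in limma). Without sham replicate 2 the number that fell was 2. Of 11 further LIM genes of the FHL and CRP kind 3 rose and 3 fell, with a median of 0.03. Lmcd1 (dyxin), a LIM protein known to act in hypertrophy through calcineurin, rose by 0.78 (SE 0.14, and 0.67 without sham replicate 2) and Tes by 0.39 (SE 0.08), whereas Crip2 fell by 0.40 (SE 0.06) and Lims1 (PINCH1) by 0.29 (SE 0.07). With the mean of its probe sets Tes did not pass (0.238, adjusted p = 0.0541 in limma). Of 14 LIM genes of adhesions and actin fibres 6 rose and 1 fell, with a median of 0.28. Zyx (zyxin), a protein that moves to strained actin fibres, rose by 0.80 (SE 0.11), Mical1 by 0.78 (SE 0.10) and Lima1 by 0.54 (SE 0.10), and Ablim3 fell by 0.58 (SE 0.08).

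Among the Z-disc partners of these proteins, 10 of 20 rose and 2 fell, with a median of 0.31. Rcan1, a target and inhibitor of calcineurin, rose by 1.59 (SE 0.14), with 13.17 to 13.43 in TAC arrays and 11.22 to 11.99 in sham arrays. Synpo2l rose by 1.42 (SE 0.10), the alpha-actinin gene Actn1 by 1.18 (SE 0.10) and the filamin gene Flnc by 1.12 (SE 0.14). In all 4 genes the groups did not overlap. The 2 that fell were Prkce (-0.36) and Nebl (-0.21), named after their values were seen. The number that fell was 1 without TAC replicate 1, TAC replicate 4, sham replicate 1 or sham replicate 2, and 0 without TAC replicate 2, TAC replicate 3, sham replicate 3 or sham replicate 4.

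A list of 19 SRF, YAP and TEAD regulators also held other factors, among them Mef2 genes, Gata4, Nkx2-5 and Ybx1. Of the 19, 2 rose and 5 fell, with a median of -0.0046. Vgll2, a TEAD cofactor of skeletal muscle, rose by 1.58 (SE 0.18) and Wwtr1 (TAZ), whose groups overlapped, by 0.33 (SE 0.08). Hopx, which restrains SRF, fell by 1.36 (SE 0.07) and Mef2a by 0.49 (SE 0.05). The others that fell were Myocd (-0.66), Ybx1 (-0.24) and Mef2d (-0.22), named after their values were seen. Without TAC replicate 1, 2 or 3 the number that fell was 3. Of 18 known SRF or YAP targets outside the 10 genes, 7 rose and 2 fell, with a median of 0.16. Acta1 rose by 2.19 (SE 0.40, and 1.77 without sham replicate 2), Ccn2 by 1.82 (SE 0.11) and Axl by 0.68 (SE 0.07), and Acta2 fell by 0.53 (SE 0.09). Without TAC replicate 2 or 3 the number of targets that fell was 1.

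**Figure D4:**
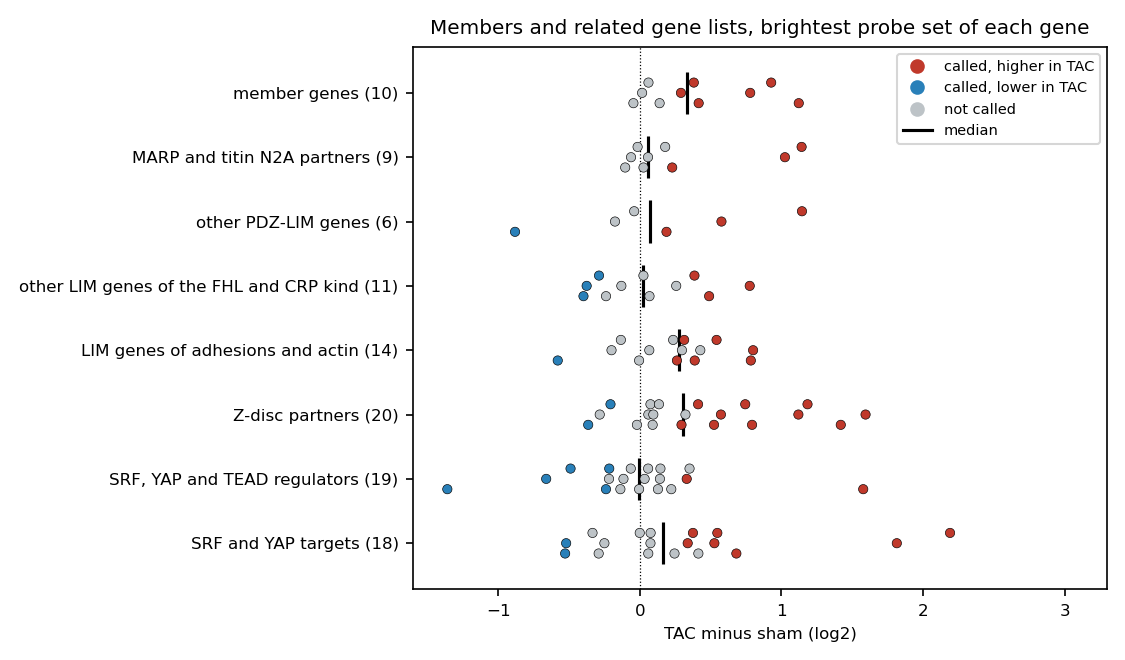
Differences between TAC and sham (log2) of the 10 member genes and of the genes in 7 related lists, each at its brightest probe set, with the number measured in parentheses. Red points were called higher and blue lower at an adjusted p below 0.05 in limma, grey points were not called, and vertical bars are list medians, which run from -0.0046 in the regulators to 0.34 in the member genes.

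Genes whose profiles over the 9 arrays were closest to those of Ankrd1 and Fhl1 were found by the mean absolute distance between log2 values taken relative to the sham mean, among 9096 genes above the median level. For Ankrd1, at its brightest probe set, they were the glutathione peroxidase gene Gpx1 (0.05), Ttll12 (0.05) and Akip1 (0.06). For Fhl1 they were the transcription activator gene Camta1 (0.06), the TGF-beta receptor gene Tgfbr1 (0.07) and the collagen gene Col1a1 (0.08). The groups themselves make up most of these profiles, so the likeness says little beyond a difference of like size. It also holds for the brightest probe set only: with the mean of its probe sets Tgfbr1 did not pass (0.213, adjusted p = 0.393 in limma) and Camta1 differed by 0.34.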

How the data were processed

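Total RNA of left ventricles was hybridized to Affymetrix mouse arrays, 1 sample per array, and arrays were grouped by their treatment label. Per the submitters' processing notes the deposited log2 values come from RMA, with software and version not given in the sources used here, and 45101 probe sets were listed, 64 of them controls. Among them 34945 had 1 gene symbol in the platform annotation, of which 34741 matched RefSeq by gene ID. The probe set with the highest mean stood for each of 18193 genes, with no filter on dim genes. TAC minus sham was fitted by lmFit and eBayes (limma 3.58.1, R 4.3.3), two-sided and with no covariate, on 7 residual and 3.27 prior degrees of freedom. Another fit covered all 45037 probe sets that are not controls. Probe sets of 1 gene were compared within arrays by two-sided exact permutation tests over 126 splits, for 7 probe sets above the median level. Python 3.11.15 (numpy 2.4.6, pandas 2.3.3) served for promoter motifs, and matplotlib 3.10.9 for figures.

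No label ties an array to 1 animal, names a batch or pairs arrays, and replicate numbers follow the sample order. The p-values therefore cover only the variation among these samples, which may be technical, and the number of arrays limits the precision. On simulated data with 200 of 18193 genes changed, the fit recovered 44.8% where the log2 change was 0.5, 92.5% where it was 1 and 98.5% where it was 2, and 6 of 163 calls were on unchanged genes. In the real fit 25.1% of all genes were called, a far larger share than was changed in the simulation. The adjusted threshold depends on that share, so these recovery rates do not carry over to the real fit. All 10 members and their probe sets are named, with up to 4 called genes of smallest p from each related list, the 4 pressure overload markers, and the 3 nearest profiles of Ankrd1 and of Fhl1. The members and lists were chosen with earlier results of these data known, so no list was tested as a set. Alternatives were other rules for the probe set, a mean-variance trend, array weights, centring, cyclic loess, a filter on dim genes, stricter thresholds and leaving out each array.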

Additional observations from a re-analysis of the deposited data

Results flagged for a closer look

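In 102 groups of 4 or 5 arrays (21 member probe sets and 30 other named genes), 12 held an array that stood further from its neighbour than a gap test at the 95% level allows. Chance flags about 1 group in 20. Sham replicate 2 accounted for 6 of the 12. It was the lowest sham array at both Ankrd1 probe sets, with 12.95 at 1420992_at (nearest 13.31) and 11.40 at 1420991_at (nearest 12.05). It was also the lowest for Pdlim2 (7.16), Lmcd1 (8.86) and Acta1 (10.13) and the highest for Limch1 (12.22). Sham replicate 5 was low at Pdlim5 1421413_a_at (12.63, nearest 12.96), high at Pdlim5 1450786_x_at (6.33, nearest 6.13) and high for Actn1 (9.31). Sham replicate 4 was high at the dim Fhl1 probe set 1459003_at (3.27, nearest 2.88). TAC replicate 1 was low at the dimmer Csrp1 probe set 1425810_a_at (6.42, nearest 6.68) and for Limch1 (12.22).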

How the results depend on the processing

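No paired analysis was possible because the labels give no replicate numbers, and those used here only name the arrays. The count of 6 member genes that rose was 7 with robust fitting on a mean-variance trend, with cyclic loess and among genes above the median level, 4 at an adjusted p below 0.01 (without Csrp1 and Pdlim3), 2 when a change above 1.5-fold was tested and 5 to 6 on leaving out 1 array. It was 5 without TAC replicate 3, where Csrp1 did not pass. The count that fell was 0 in every fit run. Over all 18193 genes 4565 were called in either direction, 425 with the 1.5-fold minimum, 2608 at an adjusted p below 0.01 and 3375 to 4914 on leaving out 1 array. Calls over all genes numbered 5006 with robust fitting on a mean-variance trend and 4700 with cyclic loess. Among the 9096 genes above the median level, which include 9 of the members, 4124 were called. Member probe sets called numbered 13, and 11 to 14 on leaving out 1 array. The 5 unequal changes within genes numbered 4 against the mean of the other probe sets. Among these 4, Ankrd1 has only 2 probe sets, so its comparison was the same one. Pdlim5 1421413_a_at was counted there with the opposite sign. On leaving out 1 array the number was 0 to 5. It was 0 without sham replicate 3, 4 or 5, where 4 adjusted p-values were 0.05, at the limit of 4 arrays against 4. Signs turned for Fhl3 with array weights (-0.0154) and without TAC replicate 4 (-0.019, in a range of -0.019 to 0.12 on leaving out 1 array), for Ldb3 with median centring (-0.0343) and for Pdlim5 1421413_a_at against the mean of the other probe sets of its gene (-0.507). With the mean of all its probe sets the difference was 1.36 for Ankrd1, 0.96 for Pdlim5 and 0.553 for Fhl1, and among other named genes 0.339 for Pdlim1, 0.409 for Axl, -0.262 for Acta2 and 0.438 for Ttll12. With probe sets below a mean of 13 it was 1.95 for Ankrd1, 1.05 for Pdlim5, 2.15 for Synpo2l and 0.913 for Des. Leaving out arrays at 1420991_at of Ankrd1, an alternative chosen after seeing the data, gave 1.80 to 2.02. The cause of these shifts was not tested. Median centring moved the median difference of all genes to -0.0547.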
